A study of Homo sapiens with 10 samples.

Results

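The genes described here are 37 long protein-coding genes of neuronal adhesion and synapse biology, taken as a named list out of 20037 protein-coding genes and located by symbol at their RefSeq positions on GRCh38. The rule that picks them uses gene names and no measured value, but the list was chosen with earlier results of these data known. What was measured is the position of H3K9me3, a histone methylation typical of heterochromatin, along each gene after knockdown of ERH.

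CUT&RUN, in which an antibody guides a nuclease to cut out the DNA around a bound protein, was performed on BJ cells, a human foreskin fibroblast line. The 3 samples behind the region list used here received siRNA against ERH at 5 nM in 2 transfections 3 days apart and were stained for H3K9me3. They were fibroblasts that had not been given reprogramming factors. The other groups of the design, 3 control siRNA samples stained for H3K9me3 and 2 control and 2 ERH knockdown samples stained for SOX2 at 48 hours after Sendai virus infection that supplied the reprogramming factors OCT4, SOX2, KLF4 and c-MYC, were not analysed here. All cells were of 1 line, and the treatment protocol in the labels names 1 ERH siRNA product. The list merges its samples into 1 set of 10536 regions with no read counts, so sequencing depth is unknown, no value below has a spread between replicates, and no comparison with control cells was made. A region shows that the mark was called there after ERH knockdown and says nothing of its level before.

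Heterochromatin marked by H3K9me3 is written by methyltransferases such as SUV39H1 and SETDB1 and bound by HP1 proteins, and it keeps genes of other lineages silent in differentiated cells. The genes in the list code for proteins that hold neurons together and build synapses: immunoglobulin and cadherin adhesion proteins, neurexins and neuroligins that pair across the synaptic cleft, scaffolds beneath the membrane, and receptors for guidance cues and glutamate. Many of them are among the longest human genes, made almost entirely of intron. RNA from these cells was not analysed here, so whether each gene was silent in them was not checked.

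H3K9me3 regions were found in most of these genes, but they were short beside the genes and far apart. At least 1 region lay in 31 of the 37 genes, or 83.8% (Wilson 95% interval 68.9 to 92.3%). Among all protein-coding genes 10.5% held a region, and among the 1870 other protein-coding genes at least as long as the shortest gene of the list (158 kb) 45.9% did. A longer gene offers more room for a region, and the neuronal genes are longer, so narrower length classes were also compared. Of the 32 neuronal genes of at least 500 kb, 30 held a region (93.8%), against 75.6% of the 283 other genes of at least that length, but their median lengths were 1144 and 702 kb. From 500 kb to 1 Mb, 11 of 13 neuronal genes held a region (84.6%, Wilson 95% interval 57.8 to 95.7%), against 73.8% (67.8 to 79.0%) of the others, and these intervals overlap. All 11 neuronal genes of 1 to 1.5 Mb held one (74.1 to 100%), against 85% (70.9 to 92.9%) of 40 others. All 8 of at least 1.5 Mb did (67.6 to 100%), against 80% (49.0 to 94.3%) of 10 others. In these classes too the intervals overlap. Of the 5 genes under 500 kb, only LRFN5 held a region (20%), against 40.6% of the 1587 others under that length.

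The 37 genes held 99 regions in 41.6 Mb of gene body. This was 0.238 regions per 100 kb (exact Poisson 95% interval 0.193 to 0.289), against 0.279 (0.266 to 0.292) in the other long genes and 0.340 over all chromosomes. The ratio of the first 2 densities was 0.853 (95% interval 0.689 to 1.04), so in this comparison the densities did not differ beyond counting error. Among genes of at least 500 kb the ratio was 0.806 (0.645 to 0.998), an interval that leaves out 1. That class is not matched for length, with medians of 1144 and 702 kb. From 500 kb to 1 Mb the densities were 0.284 and 0.292, and from 1 to 1.5 Mb 0.327 and 0.345. At 1.5 Mb and over they were 0.146 in 8 genes and 0.259 in 10 others, where the median genes had 0.140 and 0.133. The 99 regions of the neuronal genes covered 428 kb, or 1.03% of the summed gene length, against 1.08% in the other long genes and 1.63% of the summed chromosome spans. These intervals cover the counting of regions within this list only, and regions of 1 gene are not independent of each other.

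**Figure D1:**
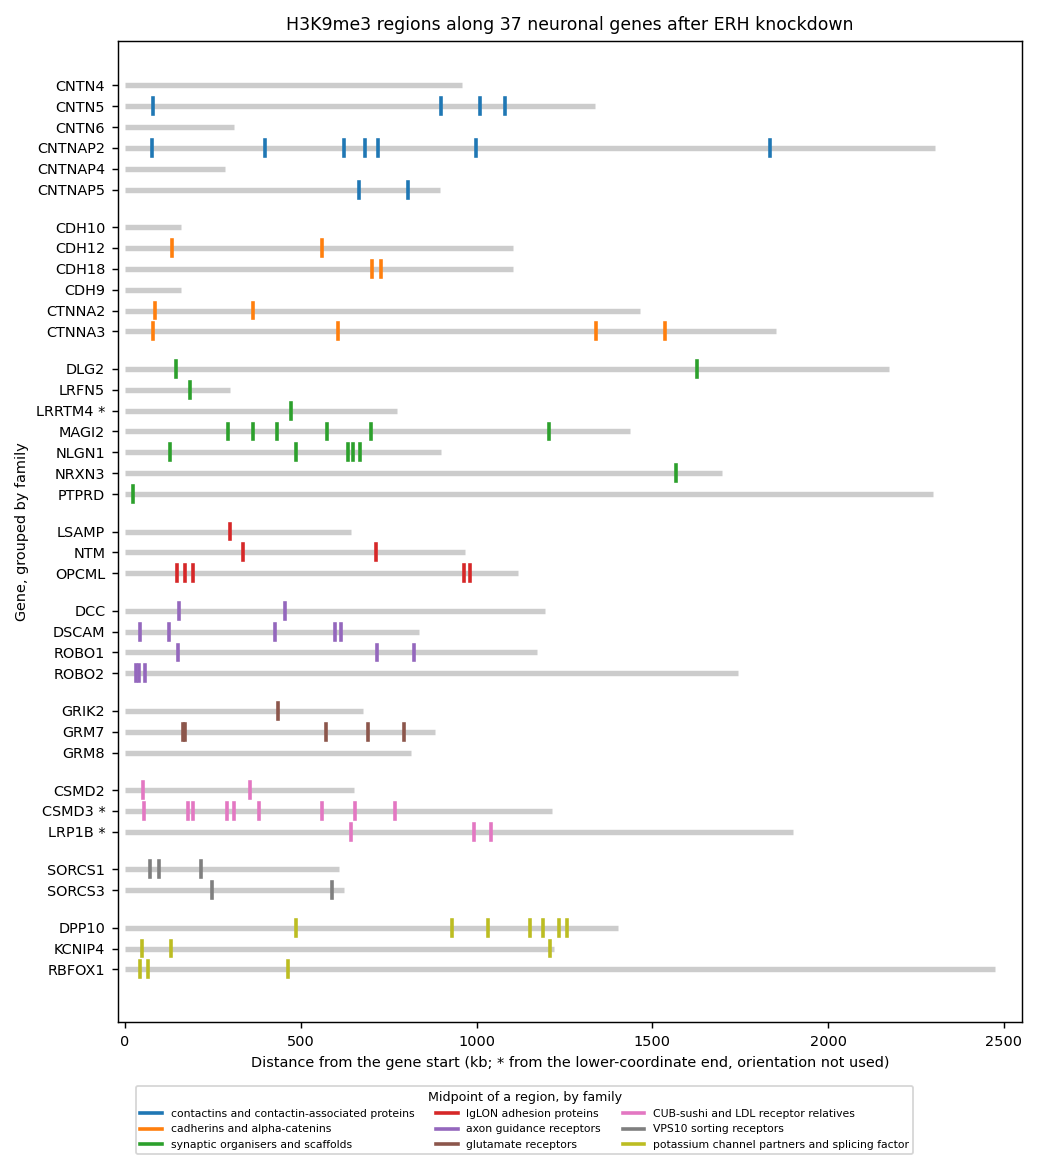
Midpoint of each H3K9me3 region (coloured tick) along each of the 37 genes (grey bar), in kb from the gene start, grouped by family; for the 3 genes with an asterisk distance runs from the lower-coordinate end. The 99 regions are scattered, 6 genes have none, and several genes have runs of 2 to 4 close regions, as in ROBO2, OPCML and DPP10.

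No region lay within 1 kb of the start of any of the 34 genes whose orientation was known. RefSeq promoter windows, each 250 bases before to 50 bases after a transcription start, were found for 34 of the 37 genes, 79 windows in all. Of these, 0 overlapped a region, which allows a share of up to 3.80%. Promoter windows seldom did so anywhere: 27 of 22199 windows of protein-coding genes overlapped a region (0.122%), and 2 of 2976 in the other long genes. The median distance from a neuronal promoter window to the nearest region was 170.0 kb, and 15 of the 79 lay within 50 kb of one. Neither value has a counterpart from other genes here, so whether these distances are unusual was not tested. One gene can also supply several windows. LRP1B, LRRTM4 and CSMD3 had no window in the table.

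The closest approach was at CTNNA2, the alpha-catenin of neurons, which ties cadherins to actin. A region on chromosome 2 at 79180416 to 79183432 ended 1694 bp upstream of its outermost promoter window, outside the gene. Next came CTNNA3, the alpha-catenin best known from heart muscle, with an internal window 10015 bp from a region. CDH18, a type II cadherin, followed with an internal window 12613 bp from one. The 250 bases before the transcription start at these 3 sites are printed 5′ to 3′. They come from the neuronal promoter windows nearest to called H3K9me3. Each CG dinucleotide, the usual site of DNA methylation, is in capitals (RefSeq, GRCh38.p14; chr2:79185127-79185376 on the plus strand, chr10:67696196-67696445 on the minus strand and chr5:19886273-19886522 on the minus strand).
CTNNA2: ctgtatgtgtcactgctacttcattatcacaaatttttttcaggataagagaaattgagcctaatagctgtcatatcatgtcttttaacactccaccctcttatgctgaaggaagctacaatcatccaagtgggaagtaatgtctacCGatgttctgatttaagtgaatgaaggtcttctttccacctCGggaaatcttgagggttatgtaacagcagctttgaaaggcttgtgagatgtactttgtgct
CTNNA3: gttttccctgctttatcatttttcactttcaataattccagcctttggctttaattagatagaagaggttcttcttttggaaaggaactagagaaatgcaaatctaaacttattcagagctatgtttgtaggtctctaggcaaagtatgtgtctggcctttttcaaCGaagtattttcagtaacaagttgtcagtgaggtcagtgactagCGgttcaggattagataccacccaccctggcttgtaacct
CDH18: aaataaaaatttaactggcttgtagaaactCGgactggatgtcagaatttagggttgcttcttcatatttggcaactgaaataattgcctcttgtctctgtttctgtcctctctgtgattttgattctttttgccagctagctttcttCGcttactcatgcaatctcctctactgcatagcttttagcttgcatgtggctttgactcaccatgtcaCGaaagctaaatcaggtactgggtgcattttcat
These stretches are poor in CG, with 2, 2 and 3 CG dinucleotides and a GC content of 39.2%, 38.8% and 39.6%. The neuronal windows as a whole had a median of 12 CG dinucleotides in 300 bases and a GC content of 56.7%, against 21 and 62.3% in all protein-coding windows and 18 and 60.7% in the other long genes. They ranged widely, from 0 to 52 CG dinucleotides. The window of PTPRD, the next gene in order of distance, had 40 and lay 22014 bp from a region.

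**Figure D2:**
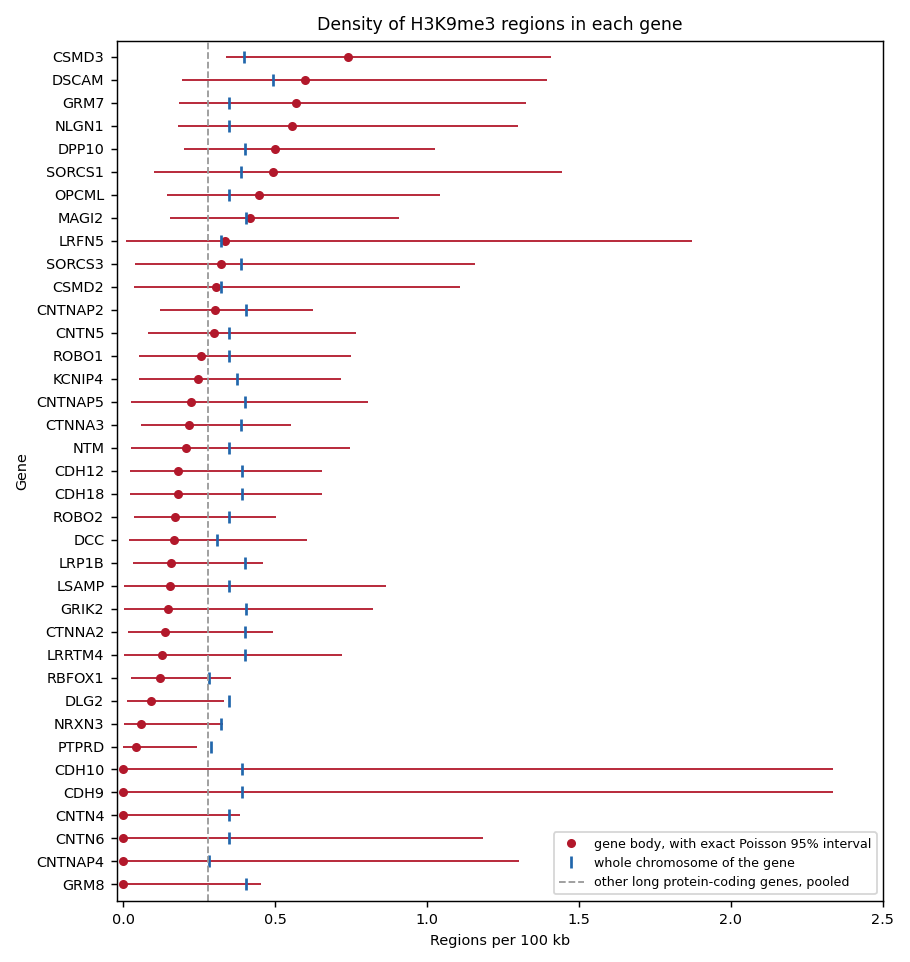
Regions per 100 kb in each gene (red point) with its exact Poisson 95% interval (line), the density of the whole chromosome it lies on (blue mark) and the pooled density of the other long protein-coding genes (dashed line, 0.279). CSMD3 is highest at 0.741 and 6 genes are at 0; the intervals of 35 of the 37 genes include the dashed line, with CSMD3 above it and PTPRD below.

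The number of regions per gene ran from 0 to 9 with a median of 2. There were 6 genes with none, 6 with 1, 15 with 2 or 3, and 8 with 5 or more, which together held 49 of the 99 regions. Counts rose with gene length only loosely (Spearman rho 0.53 and Pearson r 0.40 across the 37 genes, against 0.38 and 0.46 across the other long genes; these are descriptions across genes that share 1 list). The longest genes were not the fullest. The 8 genes of at least 1.5 Mb held 24 regions, 0.146 per 100 kb (0.0935 to 0.217), while the 11 genes of 1 to 1.5 Mb held 45, or 0.327 per 100 kb (0.238 to 0.437). These intervals do not overlap. In the other long genes of the same classes the pooled densities were 0.259 (0.190 to 0.345) and 0.345 (0.295 to 0.402). The median gene fell from the shorter to the longer class in both sets, from 0.256 to 0.140 per 100 kb here and from 0.270 to 0.133 in the others.

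**Figure D3:**
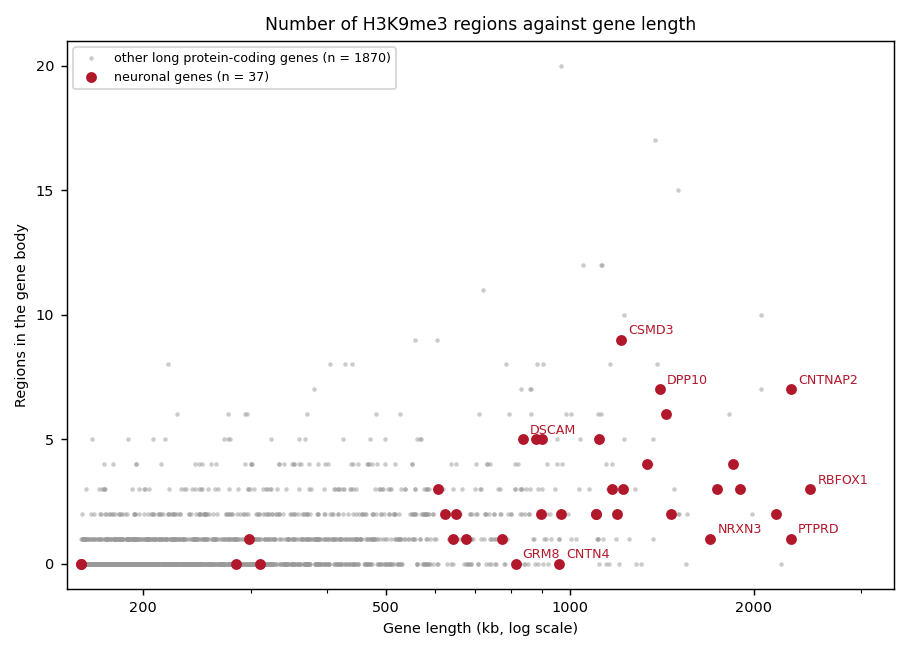
Number of regions in the gene body against gene length (kb, log scale) for the 37 neuronal genes (red) and 1870 other long protein-coding genes (grey). CSMD3 has 9 regions, while PTPRD, of similar length to CNTNAP2 with 7, has 1.

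Among contactins and their partners, 3 of 6 genes held regions, 13 in all. CNTNAP2, which gathers potassium channels beside the node of Ranvier, had 7 regions over 2304 kb, or 0.304 per 100 kb, and 1.31% of its length was covered. CNTN5, an adhesion protein anchored in the membrane by a lipid, had 4, and CNTNAP5 had 2. The other three were free of regions. CNTN4 was the longest gene of the list without one, at 959 kb. A count of 0 there allows up to 0.313 regions per 100 kb at 3 counts, but its exact Poisson interval, 0 to 0.385, includes the 0.349 of chromosome 3. The nearest region lay 205 kb away. CNTN6 (311 kb) and CNTNAP4 (283 kb) were too short for such a limit to be informative, at 0.964 and 1.06 per 100 kb, with the nearest regions 46.7 and 69.5 kb away.

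The cadherins and alpha-catenins held 10 regions in 4 of 6 genes. Type II cadherins mediate selective adhesion between neurons. Of the 4 in the list, all on the short arm of chromosome 5, CDH12 and CDH18 had 2 regions each. CDH9 and CDH10, each 158 kb long, had none, and the nearest regions lay 21.9 and 177 kb away. At this length a count of 0 allows up to 1.90 regions per 100 kb. CTNNA3 had 4 regions, the first of them 79.1 kb from its start. CTNNA2 had 2, at 5.91% and 24.9% of the gene. The larger, at 79544262 to 79555162 on chromosome 2, spanned 10901 bp and had the highest score of any of the 99 regions, 115137, which 96% of the regions on the chromosomes did not exceed.

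All 7 synaptic organisers and scaffolds held a region, 17 together, from 1 to 6 in each gene. Pooled, this was 0.178 per 100 kb (0.103 to 0.284), against 0.213 (0.114 to 0.365) in the contactins and their partners. Shares of genes with a region by family were not matched for gene length. NLGN1, a postsynaptic partner of neurexins, had 5 regions in 898 kb (0.557 per 100 kb, interval 0.181 to 1.30), of which 3 stood 12.8 and 16.0 kb apart at 70.4 to 74.3% of the gene. The longest of these spanned 174027101 to 174030299 on chromosome 3, and 1.40% of the gene was covered. NRXN3, a presynaptic neurexin, had 1 region in 1698 kb (0.0589 per 100 kb, interval 0.00149 to 0.328). The 2 intervals overlap, which does not settle whether the densities differ, and the difference was not tested. PTPRD, a receptor phosphatase that organises presynaptic terminals, also had 1, at 10587463 to 10590938 on chromosome 9 and 23.8 kb from the gene start. The remaining 2273 kb of PTPRD, 98.9% of its length, was the longest stretch without a region in any of these genes. Its density of 0.0435 per 100 kb (interval 0.00110 to 0.242) was below the 0.291 of chromosome 9.

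MAGI2, a scaffold with several PDZ domains, had 6 regions in 1437 kb (0.418 per 100 kb, 1.55% covered). Of these, 5 followed each other at 64.5 to 136 kb between 20.4% and 48.7% of the gene. The sixth, at 78246131 to 78250364 on chromosome 7, had the highest score per base pair of all 99 regions, 15.1 against a median of 5.85. The longest region of MAGI2 lay at 79017467 to 79022601. DLG2, another scaffold of the postsynaptic density, had 2 regions separated by 1477 kb. LRFN5, a leucine-rich adhesion protein, had 1 of 4808 bp at 41788143 to 41792950 on chromosome 14, which covered 1.62% of this 298 kb gene. LRRTM4, a leucine-rich protein of excitatory synapses, had 1, covering 0.318%.

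The IgLON proteins are short immunoglobulin adhesion proteins on neuronal surfaces, and all 3 held regions. OPCML had 5 (0.447 per 100 kb, 1.65% covered), arranged as 3 within 50 kb of sequence at 13.3 to 17.2% of the gene and 2 at 86.2 and 87.8%. The longest lay at 133337305 to 133343206 on chromosome 11, and another overlapped the intronic RNA gene OPCML-IT1. The stretch between both groups, 767 kb, had no region. NTM, its neighbour on chromosome 11, had 2, one of which carried the second highest score of the 99, 77152. LSAMP had 1, near the middle of the gene.

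All 4 axon guidance receptors held regions, 13 in all, in contrasting layouts. DSCAM, an immunoglobulin receptor of neurite self-recognition and guidance, had the largest covered share of the list, 3.55% of 836 kb, in 5 regions (0.598 per 100 kb, interval 0.194 to 1.40). Chromosome 21 as a whole was close to both values, with 0.495 per 100 kb and 3.56% covered. The longest region of all 99, 13584 bp, lay at 40797412 to 40810995, with its midpoint 43.0 kb from the DSCAM start. ROBO2, a Slit receptor, had 3 regions, all between 31.6 and 55.9 kb from its start and separated by 1.72 and 9.63 kb, and the other 1684 kb, 96.6% of the gene, had none. ROBO1, its neighbour and paralog, had 3 spread from 150.4 to 823 kb. DCC, the netrin receptor, had 2.

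Among the glutamate receptors, 2 of 3 held regions. GRM7, a presynaptic metabotropic receptor, had 5 regions (0.568 per 100 kb, interval 0.184 to 1.33) covering 2.17% of 880 kb, the longest at 7022216 to 7027412 on chromosome 3. GRM8, of the same receptor group and 814 kb long, had none, and the nearest region lay 159 kb away. A count of 0 there allows up to 0.368 per 100 kb at 3 counts, and its exact Poisson interval is 0 to 0.453. GRIK2, a kainate receptor subunit, had 1 region. The intervals of all 3 genes overlap, and the differences in density were not tested.

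The highest density of all was in CSMD3, a large membrane protein of CUB and sushi domains. It had 9 regions in 1214 kb, or 0.741 per 100 kb (interval 0.339 to 1.41), and 3.42% was covered. The regions followed each other at 8.54 to 175 kb, the longest at 112986566 to 112993117 on chromosome 8. The flanks of CSMD3 were equally dense, with 9 regions in windows that together had the length of the gene. CSMD2, its relative on chromosome 1, had 2 regions, and LRP1B, a giant receptor of the LDL receptor family, had 3 in 1900 kb (0.158 per 100 kb).

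Both VPS10 sorting receptors held regions. SORCS1 had 3 at 11.7 to 35.5% of the gene, covering 2.48% (0.494 per 100 kb), the longest at 107106024 to 107113733 on chromosome 10. SORCS3, on the same chromosome, had 2, covering 1.34%, the longest at 104887059 to 104892556. Among the partners of Kv4 potassium channels, DPP10 had 7 regions (0.499 per 100 kb, 2.24% covered), of which 6 lay between 66.4 and 89.6% of the gene, with its longest at 114925090 to 114931028 on chromosome 2. KCNIP4, another Kv4 partner, had 3, including 1 at its far end that also overlapped the protein-coding gene PACRGL. RBFOX1, a neuronal splicing factor and the longest gene of the list, had 3, at 1.76 to 18.7% of its length, and 2009 kb of it held none.

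Along the 34 genes whose orientation was known, regions were most frequent in the first 20% of the gene and least frequent in the middle. The first 20% held 29 of 86 regions, or 33.7% (Wilson 95% interval 24.6 to 44.2%), against 20.4% of 1431 regions in the other long genes. The middle 20% held 7, or 8.14% (4.00 to 15.9%), against 21.0%. Both intervals leave out the value of the other long genes, but regions of 1 gene are not independent: 8 genes with 2 or more regions in their first 20% supplied 19 of the 29. These shares are also not matched for length. The other long genes are shorter (median 257 against 1103 kb), so a step of 20% spans fewer bases in them. Counted by gene, 18 of 28 genes with regions had one in the first 20%, then 9, 7, 14 and 10 in the following steps of 20%. Of 715 other long genes with regions and a known orientation, 237, 240, 240, 221 and 194 had one in these steps. A gene with more regions can count in more steps. The nearest midpoint to a gene start was that of PTPRD, at 23.8 kb.

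**Figure D4:**
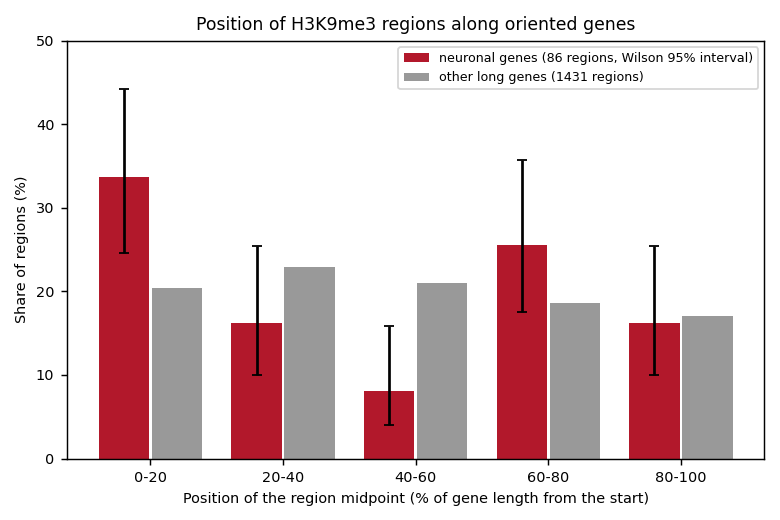
Share of regions by position of the midpoint along the gene, in steps of 20% of gene length from the start, for neuronal genes (red, 86 regions, Wilson 95% intervals) and other long genes (grey, 1431 regions). The neuronal genes have 33.7% of regions in the first step and 8.14% in the third.

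Regions were fewer inside the genes than beside them. In flanks of 50% of the gene length on each side there were 159 regions, 0.382 per 100 kb (0.325 to 0.446), so that the density inside was 0.623 times that outside and the 2 intervals do not overlap. Of the 37 genes, 23 had fewer regions in the body than in the flanks, 9 had more and 5 had the same number. Of the other long genes 38.3% had fewer and 24.3% had more, against 62.2% and 24.3% here. The remaining other long genes had equal counts in body and flanks. Those genes are shorter, with a median of 257 against 1103 kb, and 45.9% of them held a region. These shares are therefore not matched for length. NLGN1 had 5 regions inside against 2 in the flanks, and NRXN3 had 1 against 10. The other long genes showed the same direction, 0.279 inside against 0.360 in their flanks, a ratio of 0.774. The difference between the 2 ratios was not tested. Density was above that of the whole chromosome in 9 of the 37 genes (24.3%, against 30.2% of the other long genes), and the covered share in 5 (13.5%, against 22.4%).

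**Figure D5:**
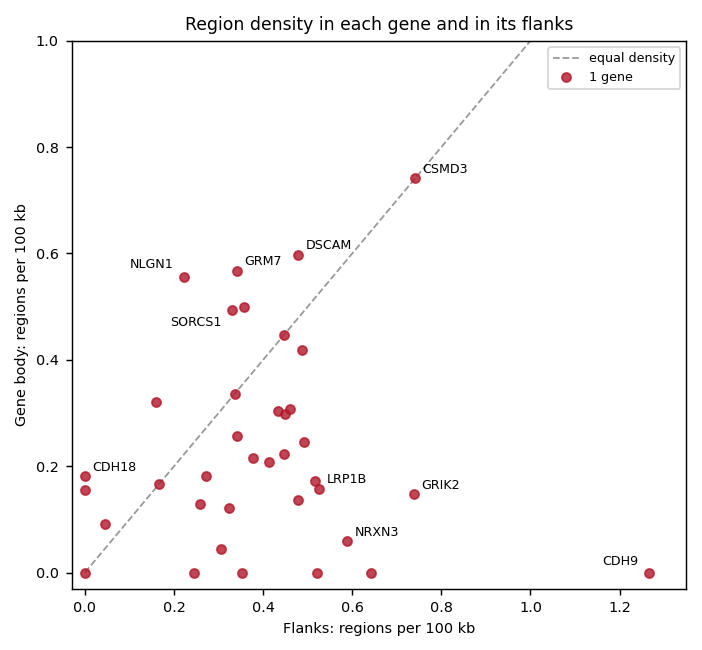
Regions per 100 kb in each gene body (vertical) against its flanks of 50% of the gene length on each side (horizontal); each point is 1 of the 37 genes and the dashed line marks equal density. 23 genes had fewer regions inside than in the flanks and 9 had more; points for flanks that reach into a neighbouring gene of the list, as with NTM and OPCML, share regions.

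The regions were similar in median length to the whole list, longer than those of the other long genes, and lower in score per base pair. Their median length was 3879 bp (binomial 95% interval 3493 to 4308 bp), against 3388 bp (3335 to 3452 bp) in the other long genes and 3529 bp over all chromosomes. Of the 99, 3 reached 10 kb (3.03%), in CTNNA2, ROBO2 and DSCAM. The share was 1.41% in the other long genes and 5.29% over all chromosomes. The score, which the authors deposited without a unit, was at or above the median of the list in 48 of 99 regions. Per base pair it was 5.85 (5.51 to 6.46), lower than the 6.79 (6.64 to 6.95) in the other long genes and the 6.98 of all regions on the chromosomes. All 99 lay wholly inside their gene. Another annotated gene overlapped 6 of them, a long noncoding RNA gene in 5 and PACRGL in the sixth. No exon positions were used here, so regions were not assigned to exons or introns.

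The spacing of regions within genes was measured from gap to gap. Of the 68 gaps between neighbouring regions in the same gene, 19 in 12 genes were under 50 kb (27.9%, against 47.8% of 920 gaps in the other long genes). The median gap was 115 kb, against 54.7 kb, and the shortest was 1.72 kb in ROBO2. The other long genes are shorter, which limits the gaps they can hold, and the difference in spacing was not tested. A stretch of at least 1 Mb without a region was found in 7 of the 19 genes that long, against 12 of 50 others, and in the median gene the longest such stretch took up 61.8% of its length.

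A set of 66 relatives from the same families outside the list held regions in 15 cases, 30 regions in all. Their density was 0.176 per 100 kb (0.119 to 0.252), and the 35 relatives at least 158 kb long had 0.177 (0.117 to 0.258), both overlapping the interval of the listed genes. The most covered relative was GRM6, a metabotropic receptor of the retina only 17.0 kb long, with 48.8% of its length under 1 region. MAGI3, a scaffold related to MAGI2, had 6 regions covering 6.79%, and SORCS2 had 4 covering 4.41%. The others named by the same rule were SORT1 (3.74% covered), DLG1 (3.46%), CNTN1 (3.09%), PTPRS (1.60%), DPP6 (1.45%), NEO1 (1.38%) and CDH13 (1.20%). The cell adhesion gene CDH13 had 4 regions in 1174 kb, a density of 0.341 per 100 kb. The IgLON relatives NEGR1 and IGLON5 and the LDL receptor relatives LRP1, LRP2 and LRP4 had none. CSMD1, a relative of CSMD2 and CSMD3, was not among the 66, so the values above leave it out. It had 10 regions, or 0.486 per 100 kb, covering 1.67% of the gene.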

How the data were processed

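H3K9me3 CUT&RUN regions of BJ fibroblasts after ERH siRNA were analysed as 1 merged list (6 columns, no header). The submitters' processing notes name hg38, Bowtie2 2.3.4.1, SAMtools 1.16.1, deepTools 3.5.0, bedtools 2.27.1, SEACR 1.3 and R 3.6.3 without roles. The threshold, the control library and the merging are not given in the sources used here. The authors deposited a whole-number score per region without a unit, and a piece number that is 1 except in 17 rows, none of them in these genes. The lowest deposited start is 0, so starts were read as counted from 0, and positions are printed 1-based.

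Gene bodies came from a RefSeq table (GRCh38.p14), and strand and promoter windows from a RefSeq promoter table. All 37 symbols matched the first table and 34 the second. A region counted when it shared at least 1 bp with a gene, once for each gene. Covered bases were those of the union of regions. Chromosome spans ended at the last gene or region. Intervals were exact Poisson for densities, Wilson for shares, binomial for medians and exact binomial for the ratio, at 95%, with the limit for a count of 0 set at 3 counts. The procedures were tested on simulated intervals. No test was made, because the list has no replicates. Genes and lists were chosen with earlier results of these data known. Every gene of the list is named with its regions. The 10 most covered have fuller values, and relatives with a region are named up to 10 by covered share. Python 3.11.15, numpy 2.4.6, scipy 1.17.1, pandas 2.3.3 and matplotlib 3.10.9 were used.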

Additional observations from a re-analysis of the deposited data

How the results depend on the processing

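Over 13 results, 84 values were computed under alternatives, of which 70 stayed within the interval of the reported value or, for counts, within 1.5 times it. Dropping every region scored under the list median, which removes regions by construction, left 48 regions in the neuronal genes (25 genes with a region), 0.115 per 100 kb, 0.630% covered, a median length of 5116 bp and 6.50 score units per base pair. It left 0.170 per 100 kb in the flanks, and 0.125 per 100 kb, 0.623% covered and 26.8% of genes with a region in the other long genes. Taking only genes of at least 500 kb gave the other long genes 0.301 per 100 kb, 1.24% covered and 75.6% with a region. The density ratio was then 0.806 (0.645 to 0.998), an interval that leaves out 1, in sets still not matched for length. It ran from 0.806 to 0.924 over all alternatives. The first 10% of the gene held 16.3% of regions. Within 5 kb of a gene start, 1 gene (CTNNA2) had a region. A minimum length of 2 kb, joining regions within 5 kb and counting midpoints moved no value beyond its interval. Leaving out split pieces and a ceiling of 20 score units per base pair also moved none. The neuronal genes held 0 split pieces and 0 regions above that ceiling, so those settings could not change values inside them. Such fixed values are among the 70 that stayed.

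No paired analysis was possible because all 3 knockdown samples are merged in the list. For the same reason no replicate was left out. Depth is unknown, and H3K9me3 below the authors' threshold is not in the list.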

Other observations

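Long genes outside the list reached higher values than any gene in it. Of the 1870 other long genes, 185 (9.89%) had a higher density than CSMD3 and 121 (6.47%) a higher covered share than DSCAM. Among genes of at least 500 kb, 23 and 18 did. The most regions in any of them, 20, were in SDK1, an immunoglobulin adhesion protein of synapses, at 2.07 per 100 kb and 12.8% covered. AGBL4, a carboxypeptidase, had 15 regions, and PTPRN2, a phosphatase-like protein of secretory granules, had 12. These 3 genes were chosen after their values were seen.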
